A study of Homo sapiens with 8 samples.

Results

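The promoters described here carried H3K23su peaks in both libraries of the parental HCT15 line and in neither library of its 5-FU-resistant derivative. They were selected on those H3K23su peaks: overlapping or touching peaks of the 4 H3K23su lists were merged, and a region was kept when its midpoint lay within 1 kb of the transcription start site (TSS) of a protein-coding gene on an autosome. In total, 453 of the 15705 autosomal promoter regions with any H3K23su peak qualified, or 2.88% of them, and they are called Pa-only promoters below. Another 729 promoter regions had peaks in both resistant libraries only (FR-only), 10227 had peaks in all 4 libraries (shared), and 122500 regions were found over the whole genome. Because H3K23su chose the members, their H3K23su values are a description and carry no test.

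HCT15 is an established human colorectal cancer cell line. The parental cells (HCT15-Pa, labelled as treated with the solvent DMSO) and a resistant line obtained from a commercial source (HCT15-FR, labelled as treated with 20 μg/ml 5-fluorouracil, a pyrimidine analog that blocks thymidylate synthesis) were profiled by CUT&Tag, in which an antibody directs a transposase to chromatin carrying a histone mark. For H3K23su and for H3K27ac, 2 libraries of each line were made, 8 in all. According to the methods, HCT15-FR cells grew in 5-FU and were moved to drug-free medium shortly before each experiment, and nothing states that replicates came from separate cultures, so the spread between libraries may be technical.

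Succinylation adds a bulky, negatively charged acyl group to a lysine and, like acetylation, removes its positive charge. Histone succinylation draws on succinyl-CoA, an intermediate of the citric acid cycle, and has been found at the promoters of active genes. H3K27ac marks active promoters and enhancers. A promoter that carries acylated histones is usually open to the transcription machinery, but a peak does not measure transcription, and RNA levels were not analysed here.

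The H3K23su lists held between 65364 and 68365 peaks and the H3K27ac lists between 70600 and 76676. Peaks covered 33.0 to 33.5 Mb in the HCT15-Pa and 39.4 to 40.0 Mb in the HCT15-FR H3K23su lists, so the line without a peak at the members had the longer covered length. In the HCT15-Pa lists of both marks, 61.7% to 64.0% of peaks overlapped a peak of the other replicate. For a library of the other line the share was 58.4% to 60.6%, so the parental replicates were only slightly more alike than the lines. In the HCT15-FR lists these shares were 69.9% to 73.2% and 55.1% to 56.9%. Of 12 markers of colon epithelium, 10 had an H3K27ac peak within 1 kb of a TSS in all 4 libraries, among them EPCAM, CDX2 and VIL1. Of 8 fibroblast markers, 1 to 2 had such a peak in a library, of 8 immune markers at most 1, and of 4 endothelial markers at most 1. The lists hold no read counts, so the depth behind a peak is unknown, and a missing peak shows only that the mark did not reach the calling threshold. Fewer cells with a mark and less of the mark in each cell cannot be told apart in these bulk samples.

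Sequence upstream of the TSS is shown for 5 members to give the promoters a concrete form. The first 3 were among the members with the strongest H3K27ac peaks in HCT15-Pa cells and neither mark in HCT15-FR cells, and the other 2 belong to listed genes. All bases are GRCh37 (the coordinates of hg19), lie inside the H3K23su region and outside annotated exons, and are written 5′ to 3′ on the strand of the gene. Capitals mark matches on either strand to the motifs described later: GC box (GGGCGG), CRE (TGACGTCA) and CCAAT box (CCAAT). The stretch of MCTP2 (a calcium-binding membrane protein, chr15:94774590-94774766, plus strand) and that of PRKCZ (the polarity kinase protein kinase C zeta, chr1:2064877-2065076, plus strand) had 1 and 5 GC boxes. The stretches of IFT57 (an intraflagellar transport subunit, chr3:107941283-107941471, minus strand), AK4 (a mitochondrial adenylate kinase, chr1:65613741-65613885, plus strand) and KLF4 (a zinc finger transcription factor of differentiating gut epithelium, chr9:110252118-110252250, minus strand) had 2, 2 and 4.
MCTP2: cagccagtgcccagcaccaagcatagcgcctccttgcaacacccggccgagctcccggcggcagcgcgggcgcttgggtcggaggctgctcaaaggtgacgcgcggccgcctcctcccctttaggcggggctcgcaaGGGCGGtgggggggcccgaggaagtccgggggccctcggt
PRKCZ: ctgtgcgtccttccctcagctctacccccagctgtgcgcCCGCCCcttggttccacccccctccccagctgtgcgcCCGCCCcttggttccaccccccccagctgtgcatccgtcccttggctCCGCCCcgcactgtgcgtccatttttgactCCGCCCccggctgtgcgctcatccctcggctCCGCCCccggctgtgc
IFT57: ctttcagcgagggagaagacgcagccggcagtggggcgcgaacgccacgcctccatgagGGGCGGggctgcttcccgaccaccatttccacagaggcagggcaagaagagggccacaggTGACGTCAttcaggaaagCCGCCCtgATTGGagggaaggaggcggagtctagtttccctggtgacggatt
AK4: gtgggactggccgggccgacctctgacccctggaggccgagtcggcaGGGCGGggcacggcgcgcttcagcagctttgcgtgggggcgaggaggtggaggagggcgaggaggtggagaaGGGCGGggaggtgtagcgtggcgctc
KLF4: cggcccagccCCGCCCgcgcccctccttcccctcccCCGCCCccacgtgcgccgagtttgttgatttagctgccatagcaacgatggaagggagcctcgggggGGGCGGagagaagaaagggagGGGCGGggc
In these stretches the GC content was between 63.0% and 74.0%, and IFT57 alone also held a CRE and a CCAAT box.

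H3K27ac was measured in libraries that the selection did not use. Of the 453 Pa-only promoters, 73.1% and 72.0% had an H3K27ac peak in the HCT15-Pa libraries, against 25.4% and 24.3% in the HCT15-FR libraries. HCT15-Pa libraries averaged 72.5% ± 0.780 (SD, n = 2) and HCT15-FR libraries 24.8% ± 0.780 (SD, n = 2). They were 47.7 percentage points apart, far more than replicates differed from each other. A two-sided exact permutation test gave p = 0.333, below which a design of 2 against 2 cannot go. Without HCT15-Pa H3K23su replicate 1 or 2, where a peak in the remaining parental library suffices, 1165 and 1176 regions qualified and the difference was 23.3 and 24.2 points.

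At shared promoters, H3K27ac peaks were found in 98.1% and 98.2% of regions in HCT15-Pa and 98.9% and 98.7% in HCT15-FR libraries. The parental excess at the members minus that at shared promoters was 48.3 points (two-sided exact permutation test, p = 0.333). Shared promoters were so close to 100% in every library that they left little room for a difference between the lines. They also had stronger H3K23su, at a median HCT15-Pa percentile of 79.5 against 34.4, so they are not a matched control. Without HCT15-Pa H3K23su replicate 1 or 2 it was 24.4 and 25.1 points. At FR-only promoters the difference had the opposite sign, with 49.8% and 51.0% of regions acetylated in HCT15-Pa against 81.2% and 78.6% in HCT15-FR libraries, a difference of −29.5 points (exact permutation test, p = 0.333). That value was −16.9 points when a library had to cover 50% of a region.

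**Figure D1:**
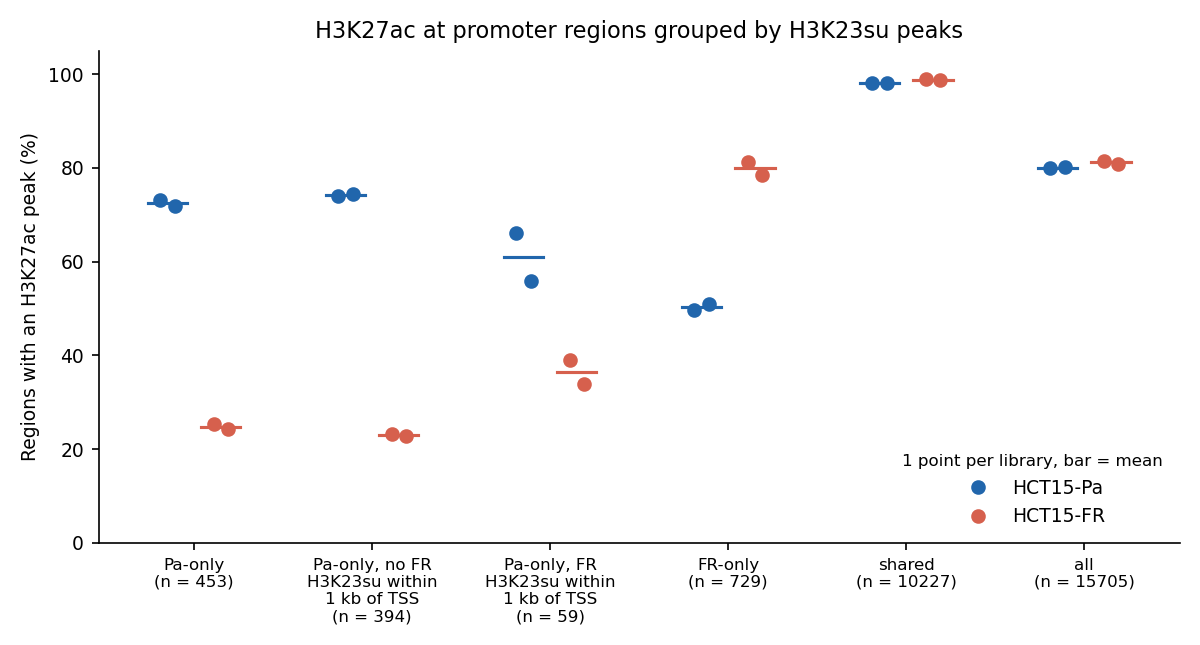
Share of promoter regions (vertical axis, percent) with an H3K27ac peak in each library, for Pa-only promoters, their division by FR H3K23su peaks near the TSS, and the FR-only, shared and all promoter regions. Each point is 1 library and each bar the mean of 2. The Pa-only promoters sit at 72.0% to 73.1% in HCT15-Pa and 24.3% to 25.4% in HCT15-FR libraries, and the shared promoters at 98.1% to 98.9% in all 4.

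Of the members, 183 (40.4%, exact 95% binomial interval 35.8 to 45.1, counting error only) had an H3K27ac peak in both HCT15-Pa and neither HCT15-FR library, which is called H3K27ac in HCT15-Pa only. The same pattern was found at 2.35% of all promoter regions, 369 in number. Another 52 members (11.5%) had H3K27ac in all 4 libraries, against 71.9% of all promoter regions. In 69 members (15.2%) no library had an H3K27ac peak, against 10.6% of all promoter regions, and 3 members (0.662%) had it in HCT15-FR only, against 2.83% of all promoter regions. The remaining 146 (32.2%, against 12.3% of all promoter regions) were mixed: 53 had peaks in both HCT15-Pa and 1 HCT15-FR library, 45 in 1 HCT15-Pa library alone, and 48 other combinations. Altogether 81.5% of members had H3K27ac in at least 1 HCT15-Pa library and 34.4% in at least 1 HCT15-FR library. Shares in at least 1 library are not given here for all promoter regions. In single HCT15-Pa libraries, 80.0% and 80.1% of all promoter regions had an H3K27ac peak, against 73.1% and 72.0% of members. In single HCT15-FR libraries these shares were 81.5% and 80.9% against 25.4% and 24.3%.

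Around the TSS both marks had the same shape in HCT15-Pa cells. H3K23su peaks of the HCT15-Pa libraries covered at most 50.8% and 48.3% of the members, both at 50 bp downstream of the TSS, and those of the HCT15-FR libraries covered at most 4.19% and 3.97% at any position within 2 kb. The H3K27ac peaks covered at most 51.2% and 48.8% in HCT15-Pa libraries, at the same 50 bp, and 13.0% and 10.4% in HCT15-FR libraries. Within 1 kb of the TSS, H3K27ac peaks covered on average 549 and 520 bp in HCT15-Pa and 163 and 141 bp in HCT15-FR libraries. The difference of 382 bp was larger than the SD of 20.1 and 15.6 bp within the lines (two-sided exact permutation test, p = 0.333). At shared promoters the same length was 1091 and 1083 bp against 1168 and 1142 bp. The covered length at the members was therefore 50.3% and 48.0% of that at shared promoters in HCT15-Pa and 14% and 12.4% in HCT15-FR libraries. Without HCT15-Pa H3K23su replicate 1 or 2 the difference was 188 and 189 bp.

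**Figure D2:**
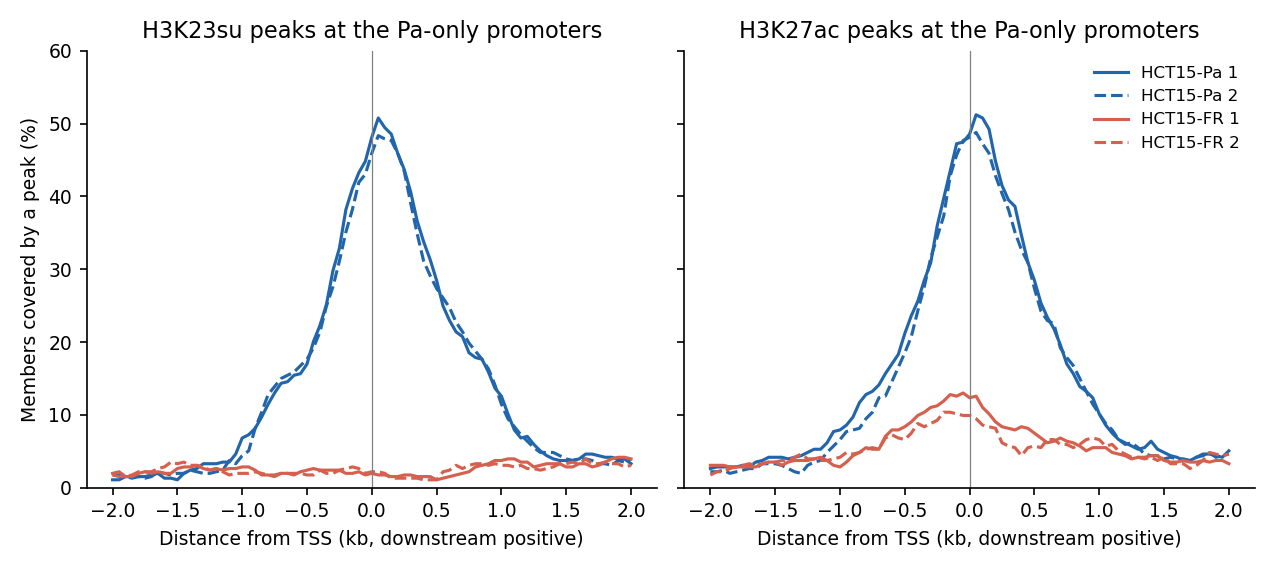
Percent of the 453 Pa-only promoters covered by an H3K23su peak (left) or an H3K27ac peak (right) at each distance from the TSS in kb, with 1 line per library. H3K23su, which chose the members, reaches 48.3% to 50.8% near the TSS in HCT15-Pa libraries, and H3K27ac reaches 48.8% to 51.2% there but only 10.4% to 13.0% in HCT15-FR libraries.

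H3K27ac peaks lying 2 to 50 kb from the assigned TSS and over 1 kb from every protein-coding TSS numbered 3.8 and 3.72 per member in HCT15-Pa and 3.78 and 4.08 in HCT15-FR libraries. The difference of −0.171 peaks lay within the spread between replicates (two-sided exact permutation test, p = 0.667), and it turned to 0.0141, 0.0676 and 0.129 with the stronger 50% of each list, with equal list lengths and with gene 5′ ends only. Without HCT15-FR H3K27ac replicate 2 it was −0.0243 peaks, and without HCT15-Pa H3K23su replicate 1 it was −0.385 peaks. At shared promoters the counts were 3.70 and 3.60 against 4.19 and 4.36. As a percent of those counts the members had 103% and 103% in HCT15-Pa against 90.4% and 93.4% in HCT15-FR libraries, so on this scale the direction turned to a parental excess of 11.1 percentage points (SD 0.436 and 2.13, n = 2; exact permutation test, p = 0.333). Of the members, 334 (73.7%) had an HCT15-FR H3K23su peak within 20000 bp and 70 (15.5%) within 1000 bp of the region, and these shares were not compared with those of other regions. Copy number of these loci in the lines was not analysed here.

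In 394 members no HCT15-FR H3K23su peak lay within 1 kb of the assigned TSS, and in 59 at least 1 did. H3K27ac was found in 74.1% and 74.4% of the former in HCT15-Pa and 23.4% and 22.8% in HCT15-FR libraries, and in 66.1% and 55.9% against 39.0% and 33.9% of the latter. The parental excess was 26.6 points larger in the former (two-sided exact permutation test of the difference, p = 0.333). This division uses HCT15-FR H3K23su peaks, on which the members were also selected. The comparison is therefore a description and no independent evidence. H3K27ac was in HCT15-Pa only in 171 of the 394 and 12 of the 59. The 3 members with H3K27ac in HCT15-FR only were all among the 59.

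Many of the genes also have other start sites. The members lay within 1 kb of TSSs of 457 protein-coding genes, which is 3.64% of the 12570 with any H3K23su promoter region, and 16 members lay near a pair of genes. Of the 457 genes, 249 (54.5%) had no HCT15-FR H3K23su peak within 1 kb of any of their TSSs, and 208 (45.5%) had one at another start or beside the region. In the 249 genes, H3K27ac was found at some TSS in 86.7% and 88.8% in HCT15-Pa and in 34.1% and 30.5% in HCT15-FR libraries. In the other 208 it was found in 98.1% and 97.1% against 92.8% and 94.7%. H3K27ac was in HCT15-Pa only over all TSSs in 121 of the 249 genes and in 5 of the 208. This division of the genes also uses HCT15-FR H3K23su peaks, on which the members were selected. Genes with several TSS positions were more frequent among the 208, and each further position is another place where a peak can count. The part of this in the difference was not tested. The gene counts are therefore a description, and they were not compared with those of other genes.

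The 15 strongest members were ranked by the percentile that the score of the weaker HCT15-Pa H3K23su peak took in its own list, the score being the authors' −log10 P. In 13 of them H3K27ac was in HCT15-Pa only, and in all 15 no HCT15-FR H3K23su peak lay within 1 kb of the assigned TSS. First was GCA, which encodes the calcium-binding protein grancalcin, with H3K23su scores of 9.49 and 11.5 and H3K27ac scores of 12.5 and 14.3 in HCT15-Pa libraries, and no peak of either mark in HCT15-FR libraries. AKR1C1, an aldo-keto reductase that reduces steroids and is induced by NRF2, followed with 8.88 and 9.11 for H3K23su and 6.24 and 7.37 for H3K27ac. AKR1C1 has close paralogs beside it, which can affect the unique mapping of reads. RCBTB2, a protein with RCC1 and BTB domains, had 8.49 and 8.45 for H3K23su and 19.6 and 16.4 for H3K27ac, again without a peak in HCT15-FR libraries.

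IFT74, a subunit of the intraflagellar transport complex that builds cilia, had H3K23su scores of 7.84 and 8.37 and H3K27ac scores of 11.7 and 11.8, in HCT15-Pa libraries alone. PDE3B, a phosphodiesterase that degrades cAMP, had 7.52 and 8.29 for H3K23su and 6.08 and 6.03 for H3K27ac, again in HCT15-Pa libraries alone, and its region also lies within 1 kb of a TSS of the proteasome gene PSMA1. GDAP1, a protein of the mitochondrial outer membrane, had 7.34 and 8.51 for H3K23su and 5.94 and 8.09 for H3K27ac, with no HCT15-FR peak. All 3 regions were thus free of both marks in the resistant lists. The palmitoyltransferase gene ZDHHC2 had 7.25 and 8.89 for H3K23su and 7.61 and 5.80 for H3K27ac in HCT15-Pa libraries. GRB14, an adaptor that binds and inhibits the insulin receptor, had 7.02 and 7.0 for H3K23su and 8.33 and 6.61 for H3K27ac. RASGRF2, an exchange factor that activates RAS, had 7.48 and 6.97 for H3K23su and 6.53 and 5.79 for H3K27ac. No HCT15-FR library had a peak of either mark over these 3 regions.

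Among the rest of the 15, FAM111A, a protease that acts at replication forks, had H3K23su scores of 7.03 and 7.89 and H3K27ac scores of 5.29 and 6.26, in HCT15-Pa libraries alone. GRAMD2B, a GRAM-domain protein, had H3K27ac scores of 12.4 and 12.7, and CCDC91, a protein of the trans-Golgi network, had 13.0 and 13.7, also in HCT15-Pa libraries alone. CIBAR1, a BAR-domain protein of the cilium base, had 6.40 and 5.54. The exceptions were TFCP2, a transcription factor of the grainyhead family, and LDB3, a protein of the muscle Z-disc. TFCP2 had H3K27ac scores of 17.2 and 17.9 in HCT15-Pa libraries and 3.66 in HCT15-FR replicate 2, which lay at percentile 22 of that list. LDB3 had 5.69 and 4.22 in HCT15-Pa libraries and 4.03 in HCT15-FR replicate 1. For 5 of the 15 genes (GCA, IFT74, GDAP1, GRAMD2B and FAM111A) another TSS of the gene had an HCT15-FR H3K23su peak, and these genes also had H3K27ac at some TSS in all 4 libraries, so the difference concerned 1 of several starts.

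**Figure D3:**
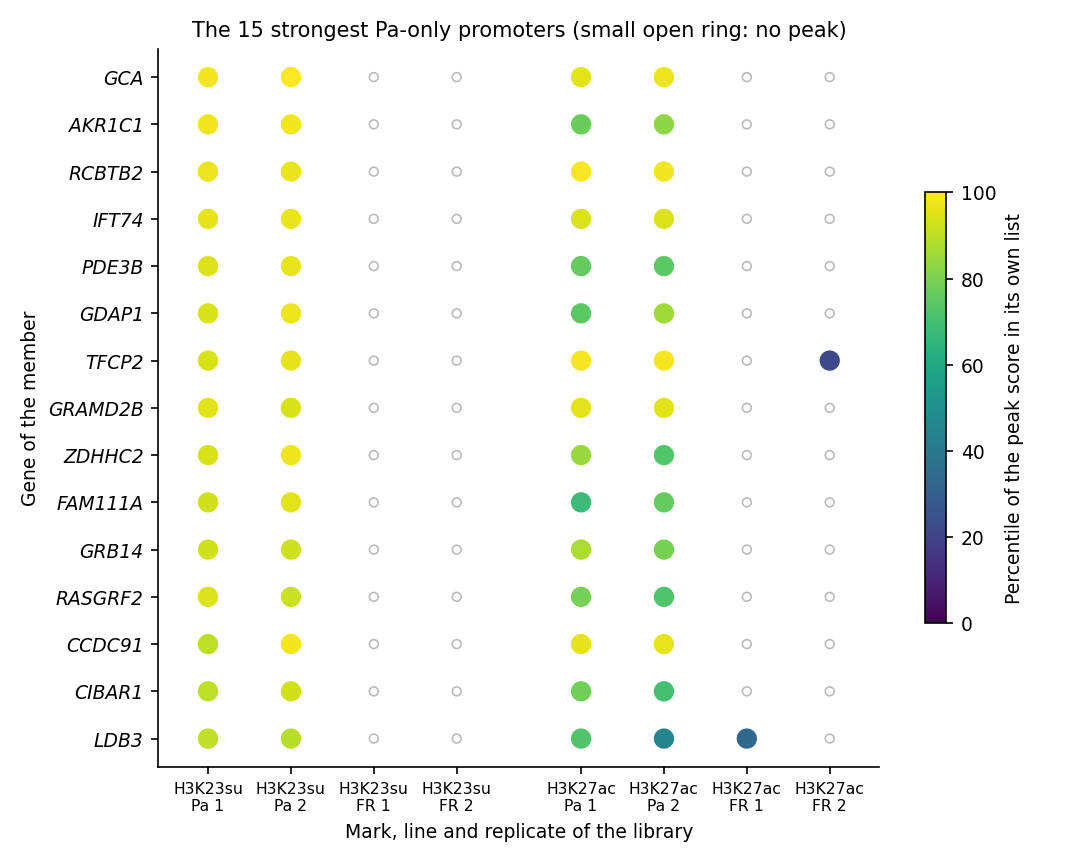
Percentile of the peak score within its own list (colour) for the 15 strongest Pa-only promoters (rows) in each of the 8 libraries (columns). Small open rings mark no peak; the only HCT15-FR peaks over these regions are H3K27ac peaks at TFCP2 in replicate 2 and at LDB3 in replicate 1.

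Ranked by H3K27ac instead, the 10 leading members without either mark in HCT15-FR cells included RCBTB2, CCDC91, GCA, GRAMD2B, MCTP2, IFT74, HENMT1, PRKCZ and IFT57. MCTP2 had 13.3 and 12.2 for H3K27ac and 9.21 and 6.07 for H3K23su. HENMT1, the methyltransferase that protects piRNAs, had 11.1 and 12 for H3K27ac and 8.23 and 5.49 for H3K23su. The upstream sequence of MCTP2, printed above, is rich in G and C. PRKCZ had 9.20 and 9.41 for H3K27ac and 5.09 and 4.80 for H3K23su. IFT57 had 8.75 and 9.41 for H3K27ac and 5.67 and 6.55 for H3K23su. Of these 10 genes, 4 had an HCT15-FR H3K23su peak at another TSS, PRKCZ among them.

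Genes of 15 pathway lists were then examined, and 9 lists had a member. Over all genes with an H3K23su promoter region 3.64% were at members, so lists of this size would hold few members at that share, and the counts that follow, those of 0 included, are descriptions that set no list apart. Among 28 genes of the Wnt pathway and colon stem cells with an H3K23su promoter region, 2 were at members, CD44 and WNT10A. CD44, the hyaluronan receptor found on colon stem cells and a Wnt target, had H3K23su scores of 3.98 and 5.43 and H3K27ac scores of 4.12 and 4.43 in HCT15-Pa libraries, and no peak in HCT15-FR libraries. The region of the ligand gene WNT10A, 938 bp into the gene, had H3K23su scores of 4.11 and 3.51 and no H3K27ac peak in any library. Both had low H3K23su percentiles, at 34.0 and 9.74 for the weaker peak, and neither remained a member with the stronger 50% of each list.

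Of 29 intestinal identity factors, 3 were at members. GRHL2, a grainyhead factor that maintains epithelial junctions, had H3K23su scores of 5.89 and 3.88 and H3K27ac scores of 5.96 and 8.51 in HCT15-Pa libraries alone. The Krüppel-like factors behaved otherwise: the midpoint of the KLF3 region lay at −753 bp from its TSS, and its H3K27ac scores were 8.40 and 10.6 in HCT15-Pa and 9.23 and 5.14 in HCT15-FR libraries. KLF4, whose midpoint lay at −345 bp, had 9.08 and 11.4 against 8.51 and 5.54. At KLF3 and KLF4 an HCT15-FR H3K23su peak also lay within 1 kb of the TSS. The GRHL2 region thus had H3K27ac in HCT15-Pa libraries alone, but HCT15-FR replicate 1 had an H3K27ac peak outside the region and within 1 kb of a GRHL2 TSS, and both KLF regions had H3K27ac in all 4 libraries. None of the 3 genes remained at a member with the stronger 50% of each list.

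Cell contact and signalling genes each gave few members. Of 25 genes of epithelial adhesion and tight junctions, only CLDN1, a claudin that seals tight junctions, was at a member, with H3K23su scores of 3.98 and 4.21 and H3K27ac scores of 5.06 and 5.88 in HCT15-Pa libraries alone, and it was not at a member with the stronger 50% of each list or when a library had to cover 50% of a region. Of 14 genes of the epithelial-mesenchymal transition, TGFB2, a TGF-beta ligand, was at a member, with H3K23su at 5.29 and 5.75 and H3K27ac at 4.65 and 5.47, in HCT15-Pa libraries alone. Of 30 interferon and antigen presentation genes, CD74, the invariant chain of MHC class II, was at a member, with H3K23su at 4.67 and 4.5 and H3K27ac at 3.88 and 5.48, but not when 50% of a region had to be covered. All 3 promoters had no peak of either mark in HCT15-FR libraries. Of 31 growth factor receptors and ligands, SEMA3A, a secreted axon guidance semaphorin, was at a member with its midpoint at −719 bp. That region had H3K27ac scores of 3.98 and 3.71 in HCT15-Pa libraries and 3.57 in HCT15-FR replicate 1. An HCT15-FR H3K23su peak also lay within 1 kb of the SEMA3A TSS. SEMA3A was not at a member with the stronger 50% of each list.

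Metabolic lists showed a similar range. Of 32 glutathione and NRF2 genes, 3 were at members: AKR1C1, MGST1 and GPX4. MGST1, a membrane-bound glutathione transferase, had a region of 1846 bp with H3K23su scores of 6.16 and 5.01 and H3K27ac scores of 5.71 and 6.89 in HCT15-Pa libraries alone. GPX4, the peroxidase that removes lipid peroxides, had a region 890 bp downstream of its TSS with H3K23su scores of 4.14 and 3.25 and no H3K27ac peak in the region, while an HCT15-FR H3K23su peak lay within 1 kb of the TSS. Of 34 genes of 5-FU and pyrimidine metabolism, only SLC22A7, an organic anion transporter, was at a member, with H3K27ac at 4.73 and 3.67 in HCT15-Pa libraries and 3.76 in HCT15-FR replicate 2. Of 32 HIF-1 and glycolysis genes, the lactate transporter gene SLC16A1 was at a member of 146 bp, with H3K23su scores of 3.35 and 4.32 and no H3K27ac peak in the region. The regions of GPX4 and SLC16A1 thus lay beside promoters that had HCT15-FR H3K23su peaks, and neither gene nor SLC22A7 was at a member with the stronger 50% of each list. AKR1C1 was not at a member when 50% of a region had to be covered.

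No member lay at a gene of the remaining 6 lists, which are short against the share of 3.64% over all genes. These held, with an H3K23su promoter region, 16 Notch genes, 23 Hippo and TEAD genes, 22 ABC transporter genes, 31 apoptosis genes, 20 genes of uracil excision and mismatch repair, and 36 genes of histone acylation and succinyl-CoA metabolism. Of the 7 genes with an H3K23su promoter region among those the study itself named as lost, 5 were at members: MGST1, AK4, KLF3, CD44 and GRHL2. The study chose those genes in analyses that used these same libraries, in part together with RNA data, so this count is no independent evidence. AK4 had H3K23su scores of 4.68 and 5.45 and H3K27ac scores of 5.93 and 6.11 in HCT15-Pa libraries alone. Over the 14 distinct member genes of the pathway lists, H3K27ac was in HCT15-Pa only at 7, in all 4 libraries at 2, in no library at 3 and mixed at 2.

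**Figure D4:**
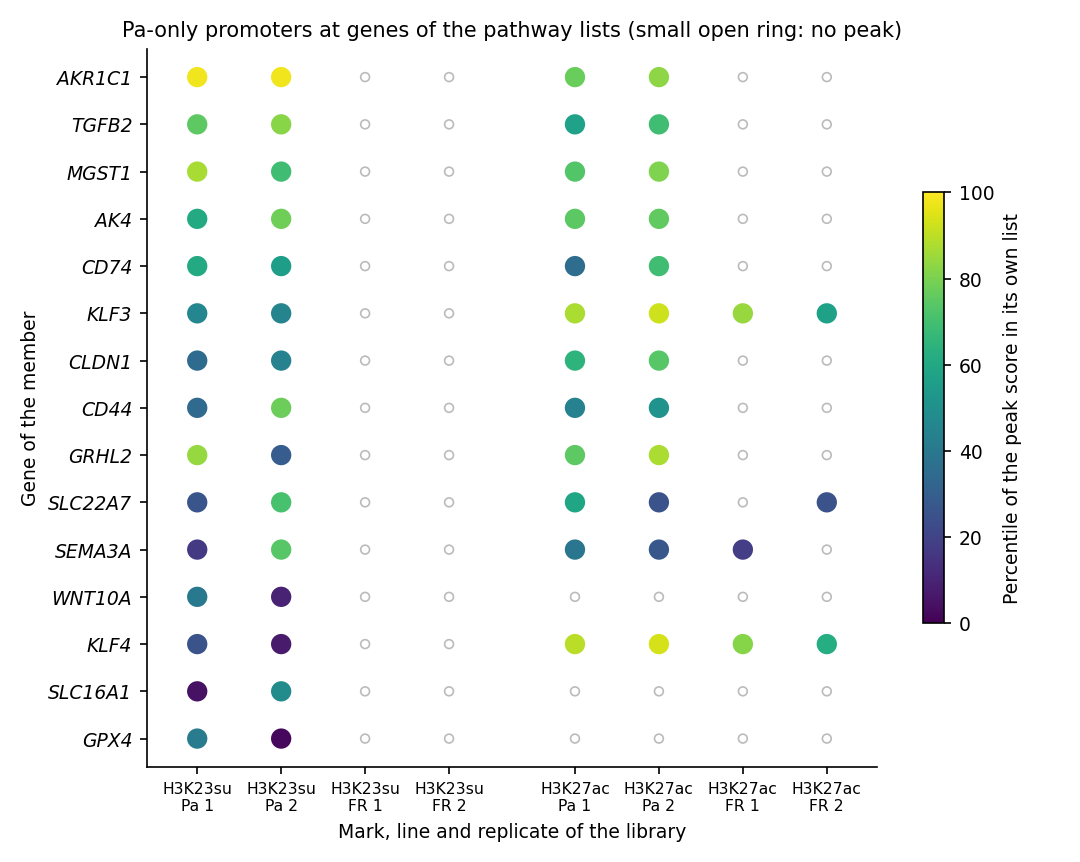
Percentile of the peak score within its own list (colour) for the 15 Pa-only promoters at genes of the pathway lists and of the genes named by the study (rows, ordered by H3K23su strength), in each of the 8 libraries (columns); small open rings mark no peak. Over the 15 regions, H3K27ac is in HCT15-Pa only at 8, in no library of either line at 3 and mixed at 2. The regions of KLF3 and KLF4 have it in all 4.

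The 3 members with H3K27ac in HCT15-FR only were NPIPB11, SPTAN1 and RAB30. SPTAN1, the alpha chain of nonerythroid spectrin, had H3K27ac scores of 5.38 and 7.10 in HCT15-FR libraries and H3K23su scores of 4.05 and 3.69 in HCT15-Pa libraries. RAB30, a GTPase of the Golgi, had H3K27ac at 5.05 and 3.55 in HCT15-FR libraries. NPIPB11 had H3K27ac at 5.06 and 4.84 there, but it belongs to a family of near-identical copies on chromosome 16, so its reads are uncertain. An HCT15-FR H3K23su peak lay within 1 kb of the TSS of all 3 genes. Among the mixed members, 9 and 5 had H3K27ac in both HCT15-FR libraries and only replicate 1 or only replicate 2 of HCT15-Pa, and 5 and 7 had it in HCT15-FR replicate 1 alone or replicate 2 alone.

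The strongest members with H3K27ac in all 4 libraries were POU2AF3, CFAP221, BSPRY, CTCFL and MTMR11. Scores depend on the library, so levels are given as percentiles within each H3K27ac list. CFAP221, a protein of motile cilia, was at 96.9 and 90.2 in HCT15-Pa and 93.5 and 87.5 in HCT15-FR lists. POU2AF3, a coactivator of POU2F3 in tuft cells, was at 84.0 and 82.6 against 0.882 and 16.6. CTCFL, the germline paralog of CTCF, was at 80.0 and 60.8 against 45.2 and 60.4. The values of CFAP221 overlapped between the lines, those of POU2AF3 lay far apart, and the HCT15-FR values of CTCFL lay below both HCT15-Pa values by a margin smaller than the spread between replicates. Over the 52 members of this kind, the median percentile of the H3K27ac peak was 67.0 and 69.5 in HCT15-Pa and 49.4 and 43.0 in HCT15-FR lists. In 27 of the 52 (51.9%) both HCT15-FR percentiles were below both HCT15-Pa percentiles, against 28.3% of the 9855 shared promoters with H3K27ac in all 4 libraries.

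The members had weaker and narrower H3K23su than shared promoters. The median width was 581 bp (range 146 to 1864 bp) against 1332 bp, and the widest were at CADM1, an adhesion molecule, MGST1 and SLCO5A1, an organic anion transporter family member, at 1864, 1846 and 1745 bp. The weaker HCT15-Pa peak had a median percentile of 34.4, against 79.5 at shared promoters, so many members were near the bottom of their lists. The region covered the TSS in 57.4% of members and 93.1% of shared promoters, and the midpoint lay upstream of the TSS in 37.5% and 29.0%. Over a 400 bp window at the midpoint, the median GC content was 60.5% and 65.2%, and 162 members (35.8%) were CpG-rich (observed over expected CpG of at least 0.6 and GC of at least 50%), against 70.3% of shared promoters and 55.9% of all promoter regions. FR-only promoters had similar values, with a median width of 554 bp and 36.1% CpG-rich.

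H3K27ac differed along both measures. Among the 151 members with the strongest H3K23su peaks, 89.4% and 88.7% had H3K27ac in HCT15-Pa and 15.2% and 15.9% in HCT15-FR libraries. The middle 151 had 76.8% and 72.8% against 30.5% and 29.8%, and the weakest 151 had 53.0% and 54.3% against 30.5% and 27.2%. H3K27ac was in HCT15-Pa only at 99, 55 and 29 members of these groups. The CpG-rich members had H3K27ac in 94.4% and 96.3% against 26.5% and 22.2%, and 102 of the 162 had it in HCT15-Pa only. The other 291 members had 61.2% and 58.4% against 24.7% and 25.4%, with 81 in HCT15-Pa only. The CpG-rich members also had the stronger H3K23su, with a median percentile of 50.8 against 28.7. Their regions were wider, at a median of 717 against 533 bp, and 1 bp of overlap counted as an H3K27ac peak. The part of each was not tested. The strength groups use the HCT15-Pa H3K23su peaks on which the members were selected, so they are a description and no independent evidence.

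**Figure D5:**
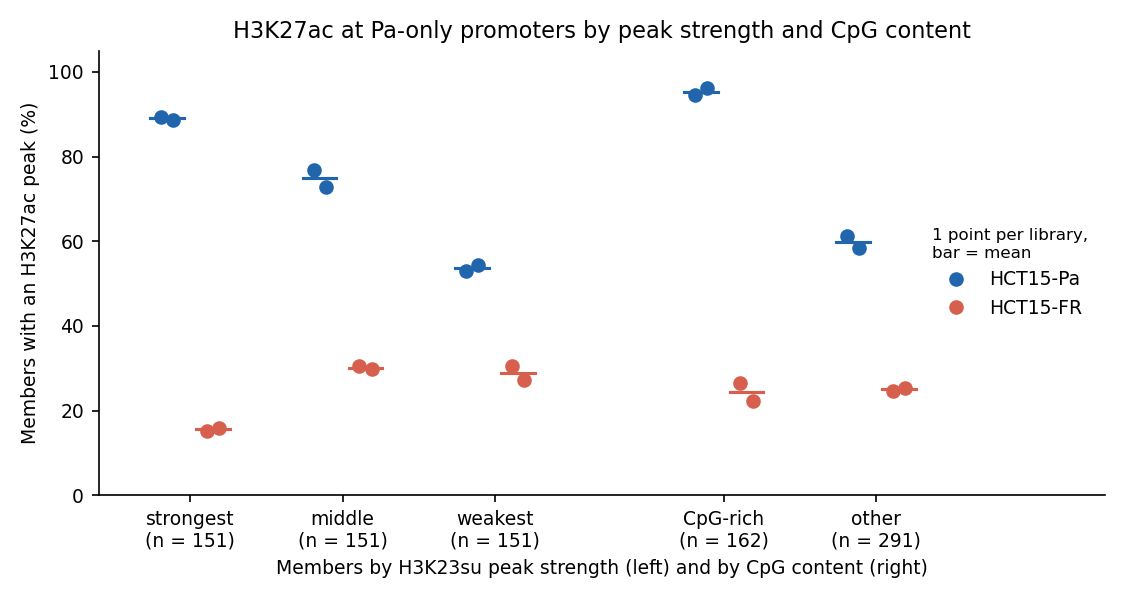
Percent of Pa-only promoters with an H3K27ac peak in each library (1 point per library, bar for the mean), by strength of the weaker HCT15-Pa H3K23su peak (3 groups of 151) and by CpG content. In HCT15-Pa libraries the share goes from 88.7% to 89.4% in the strongest to 53.0% to 54.3% in the weakest group, and in HCT15-FR libraries it is 15.2% to 15.9% in the strongest and 27.2% to 30.5% in the others.

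Exact motif matches were counted on both strands of the 400 bp windows, as a description. The GC box (GGGCGG), bound by SP and KLF factors, was in 43.9% of members and 56.7% of all promoter regions. The CCAAT box (CCAAT) was in 23.4% against 28.2%, and the ETS motif (CCGGAA) in 11.9% against 19.2%. The TEAD motif (GGAATG) was in 19.0% against 16.2%, AP-1 (TGACTCA and its alternative TGAGTCA) in 7.06% against 5.82%, and CRE (TGACGTCA) in 0.883% against 1.03%. Matches can share bases, as ETS and TEAD do at GGAA, and no motif holds another whole. At FR-only promoters the GC box was in 46.1% and the ETS motif in 15.9%, so both were also below all promoter regions there. The CCAAT box was in 32.8% of FR-only promoters, TEAD in 16.9%, AP-1 in 11.7% and CRE in 1.10%. GC content also differed between these sets, and its part in the shares was not tested.

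Values at the limits of the rule show how members compare with near misses. The 3 members just inside 1 kb were at DAPK2, UFSP2 and SPTLC3, with midpoints 989, 991 and 992 bp from the TSS, and Pa-only regions just outside were at KNDC1 and GREB1, at 1018 and 1035 bp. The region of DAPK2, a death-associated kinase, had H3K27ac in both HCT15-Pa libraries only. An HCT15-FR H3K23su peak lay within 1 kb of its TSS, and the gene had both marks at some TSS in all 4 libraries. UFSP2 and GREB1 had H3K27ac in libraries of both lines, SPTLC3 in HCT15-FR replicate 2 only, and KNDC1 in none. At the other limit, 274 promoter regions had H3K23su in both HCT15-Pa libraries and 1 HCT15-FR library. Of these, 73.0% and 70.1% had H3K27ac in HCT15-Pa and 57.3% and 56.9% in HCT15-FR libraries, with a median H3K23su percentile of 33.6, close to the 34.4 of the members.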

How the data were processed

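The series holds 8 CUT&Tag peak lists of HCT15-Pa and HCT15-FR cells, with 2 libraries per line for H3K23su and for H3K27ac. The authors aligned reads to hg19 with Bowtie2, removed duplicates and reads that were not uniquely mapped in proper pairs (SAMtools), and called peaks in each library with MACS2, as broad peaks for H3K27ac. Each deposited list gives positions and the authors' −log10 P per peak, without read counts; scores depend on the library, so peaks were ranked by percentile within their own list. Per the labels HOMER 4.10 was also used.

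TSSs were starts of protein-coding transcripts of protein-coding genes in GENCODE release 44 on GRCh37, which has the coordinates of hg19, and no peak lay beyond a chromosome end. Peaks were merged when they overlapped or touched, and 1 bp of a library's peak inside a region counted as presence. The assigned gene is that of the closest TSS. The members and all gene lists were chosen with earlier results of these data known. Libraries were compared by two-sided exact permutation tests, where 2 against 2 cannot give a p below 0.333. Intervals are exact binomial and cover counting error only.

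Named genes were the 15 strongest members, all members at listed genes (the 3 strongest per gene family), the 10 with the strongest H3K27ac among those without either mark in HCT15-FR, those with H3K27ac in HCT15-FR only, the 3 on either side of the 1 kb limit, the 6 longest runs of neighbouring genes (runs of equal length taken in chromosome order), the widest 3, and the 5 strongest with H3K27ac in all 4 libraries. Alternatives varied peak strength, overlap, merging, promoter window and TSS set, left out each library, and blocked by replicate number. A further motif that was searched, and some regions that the naming rule chose, are not reported here. The work used samtools 1.23.1 and Python 3.11.15 with pysam 0.24.0, scipy 1.17.1, numpy 2.4.6 and matplotlib 3.10.9, and the classes and motif search were tested on simulated data.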

Additional observations from a re-analysis of the deposited data

How the results depend on the processing

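The number of members was between 319 and 628 under the alternatives to peak strength, overlap, merging and window, and 241 with gene 5′ ends only. Leaving out an H3K27ac library cannot change the 453 members, since H3K23su alone chose them. Without HCT15-FR H3K23su replicate 1 or 2 there were 622 and 585. Without HCT15-Pa H3K23su replicate 1 or 2, where 1 HCT15-Pa H3K23su library sufficed, there were 1165 and 1176. The H3K27ac difference at members was 39.1 to 57.7 percentage points, and 23.3 to 48.2 leaving out each library. Relative to shared promoters it was 40.0 to 57.9, and 24.4 to 48.9 without a library. The excess of members without FR H3K23su near the TSS was 22 to 33.6, and 18.5 to 33.3 without a library. The H3K27ac bases differed by 284 to 485 bp, and 188 to 397 bp without a library. The distal count reversed to 0.0141 with the stronger 50% of each list, 0.0676 with equal list lengths and 0.129 with gene 5′ ends only, and was −0.385 to −0.0243 without a library; the cause was not tested. At FR-only promoters the difference was −32.9 to −16.9, and −30.8 to −20.1 without a library. Members with H3K27ac in HCT15-Pa only, recomputed after the data were seen, numbered 119 with the stronger 50% of each list and 120 with gene 5′ ends only, both of which also leave fewer members, 146 to 205 otherwise, and 195 to 239 without a library. Of 86 named genes, 18 stayed members under all 9 alternatives other than leaving out a library, and 39 were not members with the stronger 50% of each list.

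Replicate numbers 1 and 2 are shared by the lines, but nothing says what a number marks. With the replicate block the differences keep their values, 47.7 points at members, 48.3 relative to shared promoters, 26.6 for the division by FR H3K23su, 382 bp, −0.171 distal peaks and −29.5 at FR-only promoters, and a sign-flip test over 2 pairs cannot give a p below 0.5. No call changed, since no test here can pass a threshold of 0.05.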

Other observations

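Members were also counted in gene families set by symbol. Of 380 zinc finger (ZNF) genes with an H3K23su promoter region, 6 (1.58%) were at members, below the 3.64% over all genes, led by ZNF83, ZNF780B and ZNF22, which had H3K27ac in HCT15-Pa only. Of 237 solute carrier genes, 10 (4.22%) were at members, and of the leading 3, the amino acid carrier SLC38A11 had H3K27ac in HCT15-Pa only, whereas the zinc importer SLC39A2 and the bile acid exporter subunit SLC51A had it in 3 libraries. Of 118 FAM genes 6 (5.08%) were at members, FAM111A, FAM229A and FAM27E1 being the strongest, and FAM27E1 has near-identical copies. Of 26 KCN channel genes 2 were at members, KCNH2 and KCNQ1, with H3K27ac in no library and in HCT15-Pa replicate 1 alone. Of 45 TRIM genes 2 were at members, TRIM38 with H3K27ac in HCT15-Pa only and TRIM16 with none. Of 18 HOX genes, HOXB13, a posterior homeobox gene of the distal gut, was at a member with H3K27ac in HCT15-Pa only. TMEM72 (of 164 TMEM genes), PCDH1 (of 5 PCDH) and COL21A1 (of 12 COL) were single members with mixed H3K27ac. No member lay at 73 ribosomal protein genes, 73 genes of the NDUF, COX and ATP5 families or 18 keratin genes. These shares were not tested against that over all genes. The H3K27ac patterns given here are those of the member regions. At some TSS of the gene, ZNF83, KCNH2, KCNQ1, TRIM16, TMEM72 and PCDH1 had H3K27ac in all 4 libraries.

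Members were found on every autosome, from 1.32% of the promoter regions of chromosome 18 (3 regions) to 4.53% of chromosome 8 (25 regions). In 23 runs, at least 3 member genes followed each other within 1 Mb, and 80 members were in such runs, a count that was not compared with gene density. The longest, on chromosome 2, held ARPC2, TMBIM1, TTLL4, PRKAG3 and WNT10A among 26 promoter regions, 11 of them shared. Of its member regions, that of TMBIM1 had H3K27ac in HCT15-Pa only, but TMBIM1 had both marks at some TSS in all 4 libraries. Of 8 runs of 4 genes, the first 5 in chromosome order held ABHD1, SLC30A3, GTF3C2 and GCKR on chromosome 2, LY6D, EEF1D, PARP10 and OPLAH on chromosome 8, BRSK2, LSP1, CD81 and KCNQ1 on chromosome 11, LINGO1, TBC1D2B, CHRNB4 and ADAMTS7 on chromosome 15, and CCL22, ADGRG5, KIFC3 and NDRG4 on chromosome 16. Over the 25 genes of these 6 runs, with 1 region taken per gene, H3K27ac was in HCT15-Pa only at 5. It was in all 4 libraries at 2, in none at 4 and mixed at 14. The chromosome 11 run held 5 members at its 4 genes, so not every region of that run is in these counts.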
